A study of Homo sapiens with 12 samples.

Results

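Histone genes were followed in C4-2 cells, an LNCaP-derived human line of prostate cancer, after knockdown of CHKA, the choline kinase that starts the Kennedy pathway of phosphatidylcholine synthesis. The cells received either an siRNA pool against CHKA (SiCHKA, written siCHKA here) or nontargeting siRNA (SiNTCONTROL, written siNT), each at 50 nM by reverse transfection, and polyadenylated RNA was sequenced in 6 samples of each group. All samples were from 1 cell line and 1 siRNA pool, grown in RPMI with serum, and the labels call the RNA that of flow sorted cells. A gene was a member if it is protein coding, if its current symbol starts with H1-, H2AC, H2BC, H3C or H4C followed by digits or is H2AX, H2AJ, H2AZ1, H2AZ2, H3-3A, H3-3B, MACROH2A1 or MACROH2A2, and if it had 20 or more reads summed over the 12 samples. Of 80 genes whose symbols fit and that are reported, 44 had an identifier in the count files. The other 36, all with H2AC, H2BC, H3C or H4C symbols, had none and were not analysed here. Of those 44, 32 reached 20 reads, 5 had 1 to 19 reads and 7 had none, so that 32 of the 54127 genes in the files were described. The list was chosen for the large rise of H2BC21 in this same comparison. Its values are therefore given as a description, without a test, and it is counted apart from the other members.

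Histones package DNA. Pairs of H2A and H2B and of H3 and H4 form the nucleosome core, and linker histone H1 binds the DNA that enters and leaves it. The replicative genes, most of them clustered on chromosome 6 and chromosome 1, are transcribed in S phase to coat new DNA, and their messages usually end just after a short stem-loop bound by SLBP instead of in a poly(A) tail. Variant histones such as H2A.Z, H3.3 and macroH2A are made through the cell cycle from ordinary polyadenylated messages and are placed at particular sites. Some replicative genes can also give longer, polyadenylated messages that run past the stem-loop, and a poly(A) library sees those rather than the tailless form. The counts below are therefore levels of polyadenylated histone RNA and not of all histone RNA. In bulk samples, fewer cycling cells and less RNA per cell cannot be told apart.

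Of the 32 members, 23 belonged to the replicative families and 9 were replication-independent. On GRCh38, 16 members lay on chromosome 6, 7 on chromosome 1 and 2 on chromosome 12. The stem-loop was searched for as a stem of 6 base pairs around a loop of 4 bases within 150 bases after the stop codon. The stem had to open with GG and close with CC and the loop to open with TT, with at most 1 G-U pair. A stem-loop of this form was found in 80 of 19950 protein-coding genes of GENCODE 44 (0.401%). All 23 replicative members had it, and among the 9 replication-independent members H2AX alone did. Sites are shown for H2BC21, 3 that fell, 1 that did not pass the test and H2AX, 5′ to 3′ on the gene's strand as DNA, with 7 flanking bases in lower case and the stem-loop in capitals.
H2BC21, chr1:149886181-149886210, minus strand: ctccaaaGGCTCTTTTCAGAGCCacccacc
H2BC11, chr6:27132314-27132343, minus strand: ccctaacGGCTCTTTTAAGAGCCacccatg
H2BC12, chr6:27146359-27146388, minus strand: ccccaaaGGCTCTTTTAAGAGCCacttaaa
H1-2, chr6:26055737-26055766, minus strand: cccaaaaGGCTCTTTTCAGAGCCaccactg
H2AC11, chr6:27133508-27133537, plus strand: aaccaacGGCTCTTTTCAGGGCCacccacg
H2AX, chr11:119094891-119094920, minus strand: ccacaaaGGCCCTTTTAAGGGCCaccaccg
The site of H2BC21 had the same 16 stem-loop bases as that of H1-2, although H2BC21 was higher and H1-2 lower after siCHKA. That of H2BC11 matched H2BC12 over the same bases.

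GENCODE 44 annotates 12 of the 24 genes with a stem-loop at least 50 bases past it, and the other 12 only to within a few bases of it. H2BC21 (ENSG00000184678, chr1:149884459-149886682) is annotated 1729 bases past the stem-loop in a message of 1 exon and 2224 bases. H2AX (ENSG00000188486, chr11:119093874-119095465), a histone phosphorylated at DNA breaks, is annotated 1024 bases past it in 1 exon. The other 10 genes with longer models were H2AC6, H2AC25, H2BC4, H2BC5, H2BC11, H2BC15, H2BC18, H2BC26, H4C8 and H4C16. These models are not those of Ensembl 64, on which the authors counted, so the length a gene had in the counting is not known here.

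CHKA was low in every siCHKA sample, at 1.91 to 4.67 CPM (median 2.31), against 36.7 to 43.3 CPM (median 41.6) after siNT (log2 fold change −3.88 ± 0.14 SE, edgeR adjusted p = 5.9e-13). CPM are counts scaled to TMM-adjusted library sizes. Reads counted on genes ranged from 10685184 to 24246055 per sample. Without the TMM adjustment, 3 counts corresponded to 0.124 to 0.281 CPM, a floor that covers counting error only. siCHKA libraries 1, 3 and 5 stood apart from libraries 2, 4 and 6, with a chi-square per degree of freedom over genes of 12.5 to 24.9 across the sets and 2.39 to 9.50 within them. The siNT libraries differed as widely among themselves, at 2.51 to 30.9. Without siCHKA libraries 1, 3 and 5 the fold change of CHKA was −3.61 and without siCHKA libraries 2, 4 and 6 it was −4.27. Among members tested, those whose call or direction changed without either set, or whose log2 fold change differed most between the sets, are given below both ways. Luminal prostate markers summed to 5277 to 6677 CPM after siCHKA and 6277 to 7897 CPM after siNT, none of the 10 at 0. Sums of the other markers were at most 30.6 CPM for fibroblast, 5.97 for leukocyte, 3.65 for endothelial, 2.10 for basal prostate and 0.292 for neuroendocrine genes, with CD3E and INSM1 at 0 in all 12 samples. The fibroblast sum was 24.1 to 30.6 CPM after siCHKA and 11.7 to 19.1 after siNT, nearly all of it COL1A1, and its part in the histone values was not tested. The labels do not say whether the 6 samples of a group came from separate cultures, and the paper speaks of biological triplicates in 1 legend and of as many biological replicates as there are samples in another. P-values therefore measure the spread between these samples, part of which may be technical.

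The members did not move as one. Of the 32, 25 passed the expression filter and were tested. Apart from H2BC21, 11 of the other 24 were lower after siCHKA and 8 were higher at an adjusted p below 0.05, where 30.1% of all 14501 genes tested were lower and 32.1% were higher. These are 45.8% and 33.3% of the 24. With at least a 1.5-fold change required as well, 5 were lower and 6 were higher. The share of all genes tested at that minimum was not counted, so these 2 counts have no background beside them. Expression in the 6 siCHKA samples lay wholly below that in the 6 siNT samples for 10 of the 24 members (21.5% of all genes tested) and wholly above for 5 (19.1% of all genes tested). The median log2 fold change was −0.01 over these 24 and 0.035 over all genes tested. The 11 lower members were H1-2, H1-4, H1-10, H2AC11, H2AX, H2AZ1, H2AZ2, H2BC11, H3-3B, MACROH2A1 and MACROH2A2. The 8 higher members were H2AC25, H2AJ, H2BC5, H2BC13, H2BC15, H2BC18, H3C4 and H4C16. Without siCHKA libraries 1, 3 and 5 the counts were 10 lower and 9 higher of 26 tested, where 4594 of all 14981 genes were lower and 4718 higher. Without libraries 2, 4 and 6, 10 members were lower and 6 higher of 25 tested, where 4300 of all 14694 genes were lower and 4407 higher. The 10 then included H2AC20 (−1.34, edgeR adjusted p = 0.012), which is not among the 24.

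**Figure D1:**
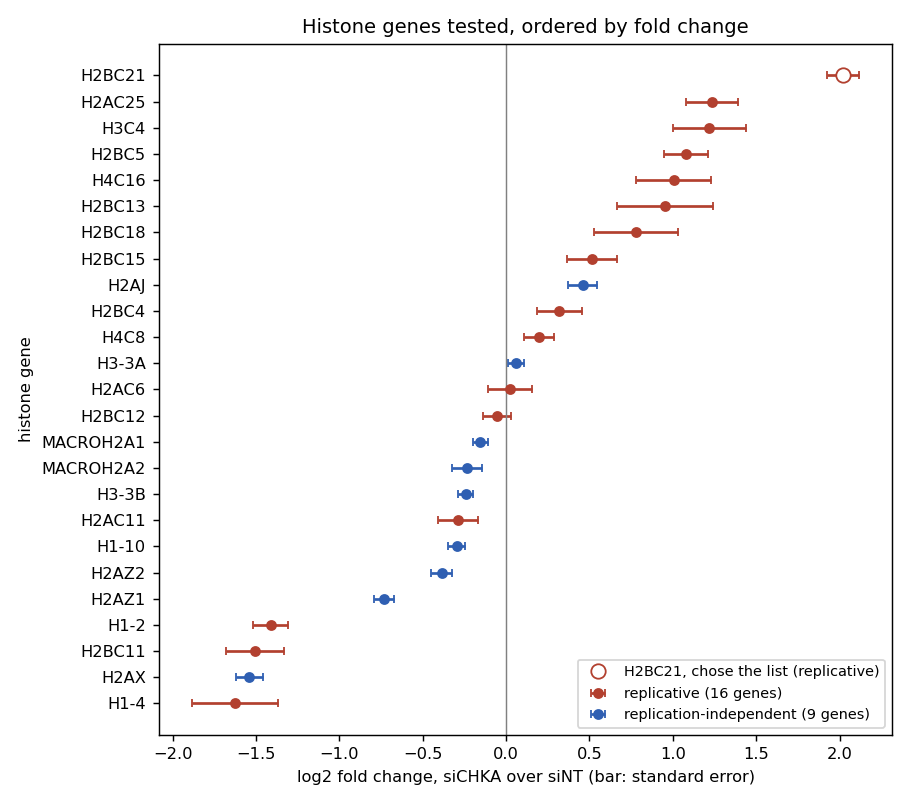
Log2 fold change of siCHKA over siNT (x axis, 6 samples a group, bars are standard errors) for the 25 histone genes tested (y axis), replicative genes in red and replication-independent genes in blue. The values run from −1.62 for H1-4 to 2.02 for H2BC21, the open circle, which chose the list and carries no test.

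Most replication-independent members fell, and the replicative members that could be counted were split. Of 9 replication-independent members, all of them tested, 7 fell, H2AJ rose and H3-3A did not pass the test, with a median log2 fold change of −0.24. Of 15 replicative members tested apart from H2BC21, 4 fell, 7 rose and 4 did not pass, with a median of 0.32. The replication-independent shares were 77.8% lower and 11.1% higher, and the replicative shares 26.7% lower and 46.7% higher. Of all genes tested, 30.1% were lower and 32.1% were higher, so the replicative share that fell was near that of all genes. The difference between these classes was not tested. CPM summed over the replication-independent members were 1576 to 1646 after siCHKA and 2022 to 2261 after siNT, which did not overlap. Over the 22 replicative members other than H2BC21 they were 152 to 167 and 149 to 239 CPM, which overlapped. H2BC21 added 47.1 to 64.3 CPM after siCHKA and 10.6 to 14.8 after siNT.

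The 3 linker genes that were tested fell, and in each the 6 siCHKA samples lay below the 6 siNT samples. Of all genes tested, 30.1% fell and 21.5% lay wholly below. H1-2, the replicative linker histone with the most reads, was measured at 22.6 to 28.2 CPM with a median of 24.3 after siCHKA and at 49.0 to 84.8 CPM with a median of 66.5 after siNT. Its level was 37.8% of that in siNT samples (log2 fold change −1.41 ± 0.10 SE, edgeR adjusted p = 3.3e-09), and the highest siCHKA sample was well under the lowest siNT sample. H1-4, another replicative linker gene, was scarce, at 0.161 to 0.536 CPM against 0.681 to 1.77 CPM (−1.62 ± 0.26, edgeR adjusted p = 3.7e-05). H1-10, a replication-independent linker gene, was at 55.7 to 65.2 CPM (median 59.1) after siCHKA and 67.7 to 81.6 CPM (median 72.8) after siNT. It fell less, by 0.30 ± 0.05 on the log2 scale (edgeR adjusted p = 1.2e-04). H1-5 did not reach the expression filter. It had 1 to 3 reads in each siCHKA library and 0 to 12 (median 9.5) in each siNT library, and the ranges overlapped through 1 siNT library without a read.

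The H2B genes held the widest range. Of 9 members, 8 were tested. Apart from H2BC21, 4 rose (H2BC5, H2BC13, H2BC15 and H2BC18), 1 fell (H2BC11), and H2BC4 and H2BC12 did not pass. Those that rose were 57.1% and those that fell 14.3%, beside 32.1% and 30.1% of all genes tested. H2BC21, a chromosome 1 gene, was measured at 47.1 to 64.3 CPM with a median of 47.6 after siCHKA, and at 10.6 to 14.8 CPM with a median of 13.03 after siNT. All 6 siCHKA samples were above all siNT samples, with libraries 1 and 3 at 56.5 and 64.3 CPM and the other 4 between 47.1 and 47.8. The ratio of the means was 4.09 and the log2 fold change 2.02, as a description. It was 1.89 without libraries 1, 3 and 5 and 2.14 without libraries 2, 4 and 6.

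H2BC5, of the chromosome 6 cluster (chr6:26158122-26171349), was at 9.65 to 12.3 CPM with a median of 10.98 after siCHKA and at 3.07 to 6.83 CPM with a median of 5.19 after siNT. The groups did not overlap, and the gene rose by 1.08 ± 0.13 on the log2 scale (edgeR adjusted p = 1.7e-06). It lies 1006 bases beyond H1-4 on the same strand, the gene with the lowest fold change among the members tested, so that neighbours moved in opposite directions. H2BC11, also on chromosome 6, was at 1.02 to 1.57 CPM (median 1.25) after siCHKA and 2.34 to 4.78 CPM (median 3.76) after siNT. It fell to 34.9% of the siNT level (−1.51 ± 0.17, edgeR adjusted p = 9.0e-07), and no siCHKA sample reached the lowest siNT sample.

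H2BC12 was the H2B gene with the most reads, at 56.0 to 73.4 CPM (median 64.4) after siCHKA and 54.6 to 81.7 CPM (median 65.4) after siNT. The groups overlapped almost wholly, and the log2 fold change of −0.05 ± 0.09 did not pass (edgeR adjusted p = 0.61). It was −0.18 without siCHKA libraries 1, 3 and 5 and 0.061 without libraries 2, 4 and 6, neither past the threshold (adjusted p = 0.12 and 0.60). Of its 40-base words, the length of the reads, 35.5% occur nowhere else on either strand of the GRCh38 chromosomes. Reads with more than 1 alignment were not counted. Adding an offset for length and GC content gave −0.28 (adjusted p = 0.016). H2BC4 was at 2.50 to 3.92 CPM (median 3.68) against 1.95 to 3.33 CPM (median 2.89), a difference of 0.32 ± 0.14 that missed the threshold (edgeR adjusted p = 0.051). Library 5 of siCHKA was the lowest of its group, and without it the difference was 0.38 (adjusted p = 0.015). Without siNT library 4 it was 0.36 (adjusted p = 0.039) and without siCHKA libraries 1, 3 and 5 also 0.36 (adjusted p = 0.044), against 0.27 (adjusted p = 0.20) without libraries 2, 4 and 6. It also passed with at least 10 reads in every sample (0.34, adjusted p = 0.033) and with the GC and length offset (0.32, adjusted p = 0.043). The other alternatives left it short of the threshold, with adjusted p from 0.0503 to 0.51. H2BC4 shares exon sequence with HFE in GENCODE 44.

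The other 3 H2B genes that rose were scarce. H2BC15 was at 2.02 to 2.35 CPM after siCHKA and 1.02 to 2.00 CPM after siNT, groups that only just did not overlap (0.52 ± 0.15, edgeR adjusted p = 0.0064). H2BC18 was at 0.968 to 1.45 against 0.0974 to 1.06 CPM (0.78 ± 0.25, edgeR adjusted p = 0.013), and 24.2% of its 40-base words are its own. H2BC13 was at 0.592 to 1.02 against 0.131 to 0.683 CPM (0.95 ± 0.29, edgeR adjusted p = 0.0082), with 72.8% of its words its own. The groups overlapped for both. Without siCHKA libraries 2, 4 and 6 neither passed, with adjusted p of 0.051 for H2BC18 and 0.065 for H2BC13, and without libraries 1, 3 and 5 both did (0.034 and 0.015). H2BC26 was not tested, with 2 to 8 reads per siCHKA library and 0 to 6 per siNT library.

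The make-up of the H2B reads shifted with these values. H2BC12 gave 68.9 to 75.7% of the CPM summed over the 9 H2B genes after siNT and 44.5 to 50.3% after siCHKA. H2BC21 gave 11.03 to 16.8% and 35.6 to 41.7%, and H2BC5 gave 3.20 to 6.58% and 7.33 to 9.46%. Shares add to the whole, so the share of H2BC12 was lower while its own level did not pass the test. H2BC21 chose the list and is part of every sum, so the shift is a description and no separate result. H2B genes without an identifier are not in the sums.

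**Figure D2:**
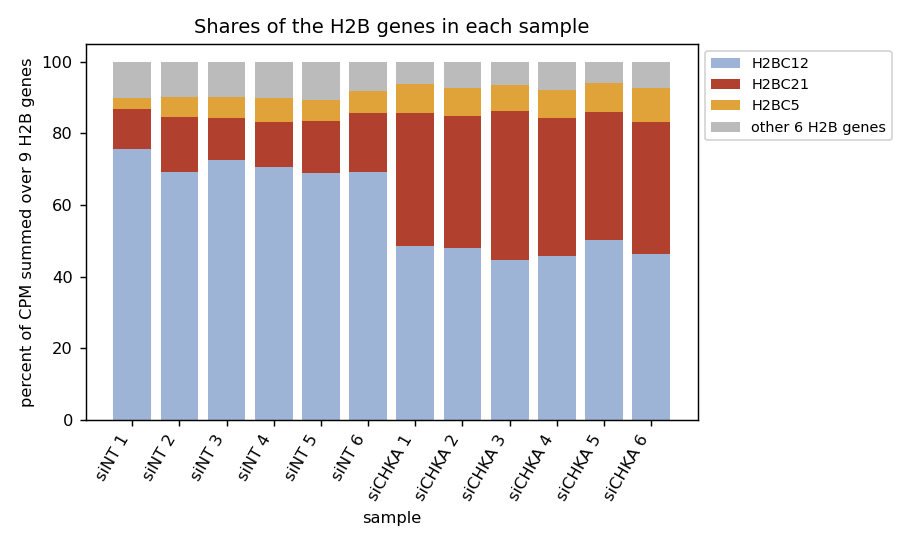
Percent of the CPM summed over the 9 H2B genes (y axis) that H2BC12, H2BC21, H2BC5 and the other 6 genes gave in each of the 12 samples (x axis). H2BC21, which chose the list, gave 11.03 to 16.8% in the 6 siNT samples and 35.6 to 41.7% in the 6 siCHKA samples.

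Canonical H2A, H3 and H4 members gave fewer reads, but replicative genes without an identifier in the count files are not among them. H2AC6 was at 22.6 to 31.7 CPM (median 26.3) after siCHKA and 16.1 to 32.5 CPM (median 26.7) after siNT. The groups overlapped, with a log2 fold change of 0.02 ± 0.13 (edgeR adjusted p = 0.88), which was 0.069 without siCHKA libraries 1, 3 and 5 and −0.033 without libraries 2, 4 and 6. H2AC25 (chr1:228434777-228457873), away from the large clusters, was at 4.09 to 7.45 CPM (median 6.45) after siCHKA and 2.06 to 3.04 CPM (median 2.53) after siNT. No siCHKA sample overlapped the siNT samples, and the gene rose by 1.24 ± 0.16 (edgeR adjusted p = 2.6e-06). Its siCHKA libraries 2, 4 and 6 were at 6.69 to 7.45 CPM and libraries 1, 3 and 5 at 4.09 to 6.21, and the log2 fold change was 1.42 with only the first set and 0.98 with only the other. H2AC11 was at 3.92 to 6.29 CPM (median 4.54) against 4.77 to 6.42 CPM (median 5.80), groups that overlapped. It fell by 0.29 ± 0.12 (edgeR adjusted p = 0.047). Library 1 of siCHKA, at 6.29 CPM, was well above the other 5, and without libraries 2, 4 and 6 the value was −0.12 (adjusted p = 0.48), against −0.48 (adjusted p = 0.0027) without libraries 1, 3 and 5. The call was lost without any 1 of siCHKA libraries 2 to 6 or siNT libraries 1 to 4 (adjusted p from 0.052 to 0.11).

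H4C8 was at 6.70 to 7.91 CPM (median 7.40) after siCHKA and 5.35 to 7.51 CPM (median 6.18) after siNT, overlapping groups whose difference of 0.20 ± 0.09 did not pass (edgeR adjusted p = 0.064). Without siNT library 3 it was 0.24 (adjusted p = 0.030). H4C16, a histone H4 gene on chromosome 12, rose from 0.342 to 0.899 CPM after siNT to 0.807 to 1.501 CPM after siCHKA (1.01 ± 0.23, edgeR adjusted p = 9.2e-04). H3C4, the 1 replicative H3 gene tested, was at 1.55 to 2.91 CPM against 0.598 to 1.36 CPM, without overlap (1.22 ± 0.22, edgeR adjusted p = 1.3e-04). Its siCHKA libraries 1, 3 and 5 were at 2.02 to 2.91 CPM and libraries 2, 4 and 6 at 1.55 to 1.89, and the log2 fold change was 1.49 with only the first set and 0.92 with only the other. The H4C16 groups overlapped at their edges. Other replicative genes stayed under the expression filter. H4C3 had 0 to 2 reads per siCHKA library and 1 to 8 per siNT library, and H2AC20 had 4 to 10 and 2 to 19. H3C12 had 3 to 13 reads per siCHKA library and 1 to 5 per siNT library, and H2AC13 had 6 to 14 and 4 to 15. In the fit without a filter, H1-5, H4C3 and H2AC20 were lower (edgeR adjusted p = 9.3e-05, 0.0026 and 0.013) and H2AC13, H2AC21, H2BC26 and H3C12 did not pass. H2AC21, with 27 reads in all, was just inside the limit of 20 reads and H4C11, with 16, just outside it.

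**Figure D3:**
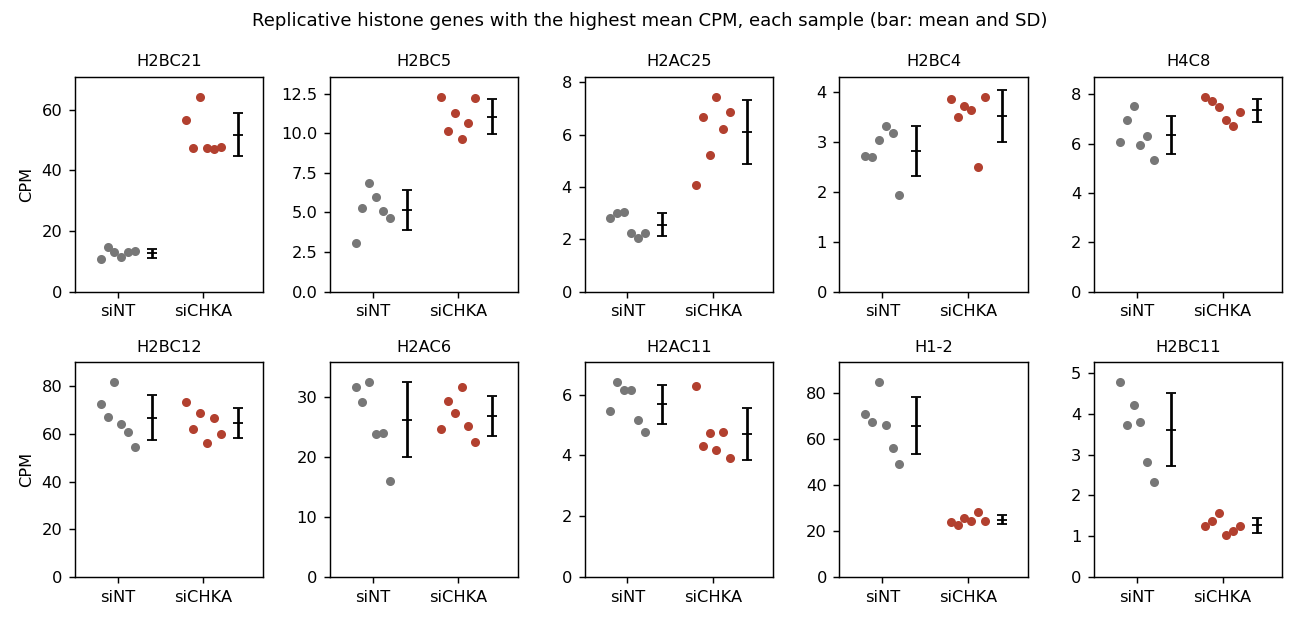
CPM (y axes, from 0) in each siNT sample (grey) and siCHKA sample (red) for the 10 replicative genes with the highest mean CPM, with mean and SD as bars. Points of the groups are separate for H2BC21, H2BC5, H2AC25, H1-2 and H2BC11 and overlap for H2BC4, H4C8, H2BC12, H2AC6 and H2AC11.

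H2A variants, which take the place of canonical H2A in the nucleosome, went in both directions. H2AX was at 50.7 to 63.9 CPM with a median of 56.9 after siCHKA and at 130.5 to 183 CPM with a median of 169.5 after siNT. It fell to 34.5% of the siNT level without overlap (−1.54 ± 0.08, edgeR adjusted p = 3.7e-11), the largest fall among the replication-independent members. H2AZ1, which encodes H2A.Z found at promoters, was at 408 to 470 CPM (median 422) against 637 to 769 CPM (median 738.5). The groups stood well apart, with a fall of 0.73 ± 0.06 on the log2 scale (edgeR adjusted p = 1.6e-08). H2AZ2, its near-identical partner at the protein level, was at 155 to 183 CPM (median 166) against 199 to 253 CPM (median 216.5) and fell by 0.38 ± 0.06 (edgeR adjusted p = 4.7e-05).

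H2AJ, a replication-independent H2A on chromosome 12, was at 67.2 to 90.6 CPM (median 73.9) after siCHKA and 46.2 to 62.8 CPM (median 55.8) after siNT. It was the only replication-independent member that rose (0.46 ± 0.09, edgeR adjusted p = 2.0e-04), and its groups did not overlap. The log2 fold change was 0.31 without siCHKA libraries 1, 3 and 5 and 0.60 without libraries 2, 4 and 6, both past the threshold (adjusted p = 0.0042 and 1.7e-05). H2AJ lies 3273 bases from H4C16 on the opposite strand, and both rose. MACROH2A1 and MACROH2A2 encode H2A variants with a large added domain, known from the inactive X chromosome and silent chromatin. MACROH2A1 was at 402 to 423 CPM (median 413) against 431 to 483 CPM (median 461), a small fall of 0.15 ± 0.04 (edgeR adjusted p = 0.0062). MACROH2A2 was at 5.42 to 6.32 CPM (median 6.01) against 6.42 to 8.37 CPM (median 6.88) and fell by 0.23 ± 0.09 (edgeR adjusted p = 0.029). Neither macroH2A gene overlapped between groups, but the MACROH2A2 call was lost without either set of siCHKA libraries (adjusted p of 0.061 and 0.12), and without siCHKA library 4 or siNT library 4 or 6 alone (0.066, 0.067 and 0.052).

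H3-3A and H3-3B encode the same protein, H3.3, which is placed in chromatin outside replication. H3-3B was at 294.5 to 316 CPM (median 303) after siCHKA and 346 to 380 CPM (median 356) after siNT, without overlap, and fell by 0.24 ± 0.04 (edgeR adjusted p = 1.2e-04). H3-3A was at 107 to 120 CPM (median 113) and 98.4 to 117 CPM (median 108), which overlapped (0.06 ± 0.05, edgeR adjusted p = 0.30). Of its 40-base words, 75.7% are its own. With the offset for GC content and length H3-3A was higher by 0.14 (adjusted p = 0.020). Whether the 2 genes differ in response was not tested.

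**Figure D4:**
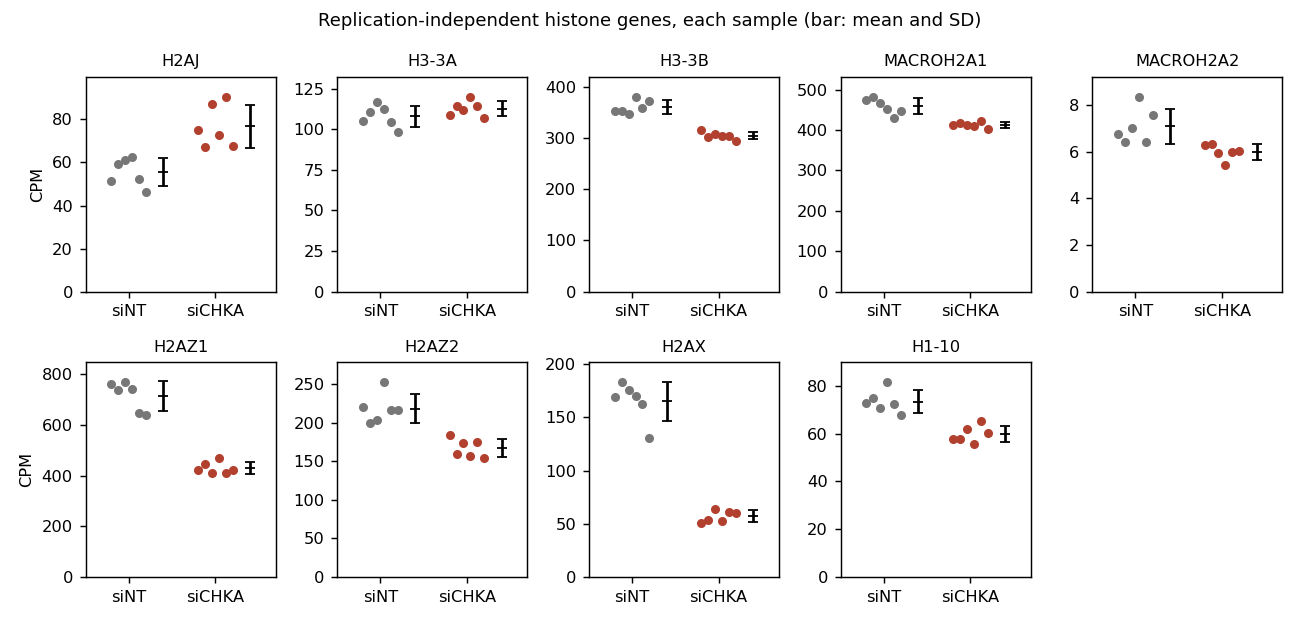
CPM (y axes, from 0) in each siNT sample (grey) and siCHKA sample (red) for the 9 replication-independent genes, with mean and SD as bars. siCHKA points lie below siNT points for 7 genes, above them for H2AJ and among them for H3-3A.

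Levels of different genes were compared per kilobase of the main GENCODE 44 transcript. Exons together were longer for H2AZ1 (2270 against 866 bases), MACROH2A1 (17013 against 1917) and H3-3B (6134 against 2705). The same held for H3-3A (3826 against 1070) and H2AJ (3332 against 620). The comparisons below therefore hold for main transcripts only and may change with the length taken. In siNT samples H2AZ1 was highest at 826 ± 67.7 CPM per kilobase (SD, n = 6), followed by MACROH2A1 at 240 ± 9.98. H3-3B at 133 ± 4.86 came next. H2BC12 was at 135 ± 19.2 over its whole length, but reads could be counted only from the 35.5% of its 40-base words that are its own, so it is given no place in the order. Of neighbours in the order, H2AX at 104 ± 11.5 and H3-3A at 101 ± 6.17 did not differ beyond their spread, nor did H1-2 at 89.9 ± 16.9 and H2AJ at 89.6 ± 10.5. H2BC21 was at 5.70 ± 0.68 CPM per kilobase in siNT samples and 23.3 ± 3.21 in siCHKA samples. H2BC5 was at 10.6 ± 2.61 and 22.7 ± 2.25. The main transcript of H2BC5 has 486 bases and its exons together 861, so the order of this pair depends on the length taken and none is given. After siCHKA H2AX was at 35.8 ± 3.44 and H2AJ at 124 ± 16.0 CPM per kilobase. In siNT samples the pair did not differ beyond their spread.

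The members were then set out by their annotated 3′ ends. Of 10 genes annotated past a stem-loop and tested, H2BC21 left out, 5 rose (H2AC25, H2BC5, H2BC15, H2BC18 and H4C16), 2 fell (H2AX and H2BC11) and 3 did not pass, with a median log2 fold change of 0.42. Of 6 annotated only to the stem-loop, 2 rose (H2BC13 and H3C4), 3 fell (H1-2, H1-4 and H2AC11) and H2BC12 did not pass, with a median of −0.17. Of 8 without a stem-loop, 6 fell, H2AJ rose and H3-3A did not pass, with a median of −0.24. Each class with a stem-loop thus held genes of both directions, and the classes were not tested against each other.

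**Figure D5:**
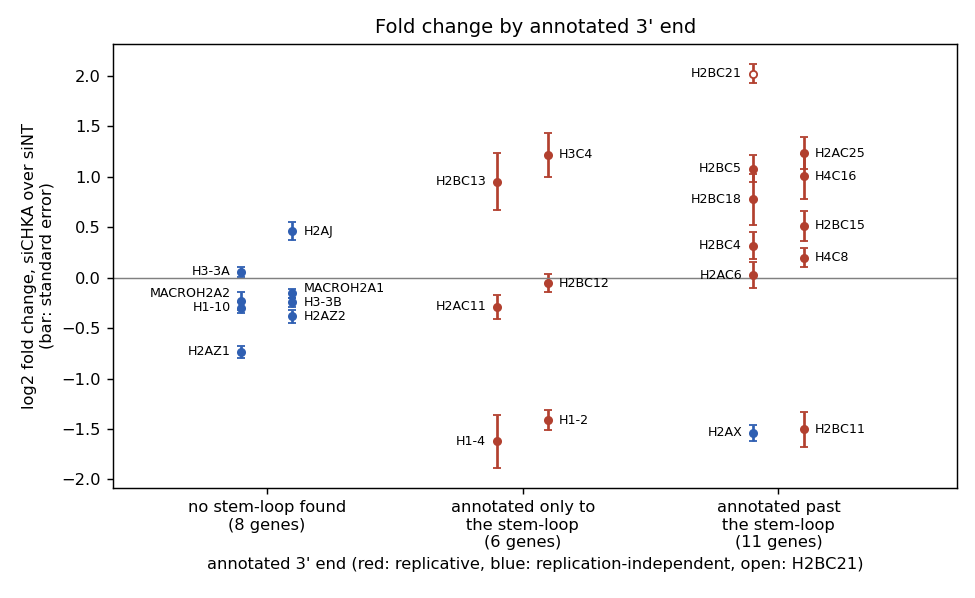
Log2 fold change of siCHKA over siNT (y axis, bars are standard errors) for the 25 genes tested, by annotated 3′ end (x axis), replicative genes in red, replication-independent genes in blue and H2BC21 open. The 11 genes annotated past the stem-loop run from −1.54 to 2.02, the 6 annotated only to it from −1.62 to 1.22, and the 8 without it from −0.73 to 0.46.

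Replicative H2A and H2B genes are often arranged head to head with a shared promoter. Of 5 such pairs in which both genes were members, H2BC11 and H2AC11, with 248 bases between their starts, both fell, though by 1.51 and 0.29. H2BC21 rose while H2AC20, 236 bases away, had 43 reads in the siCHKA libraries together and 71 in the siNT libraries. H2BC4 and H2AC6 (219 bases) did not pass. H2BC13 (244 bases from H2AC13) rose and H2AC25 (230 bases from H2BC26) rose, and their partners had too few reads to be tested. Both genes of a pair passed the filter in 2 of 5 pairs, so the pairs could not be compared as a group.

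Promoters from RefSeq (GRCh38.p14, 250 bases before to 50 after the start) were at hand for 30 of the 32 members. They were searched on both strands for CCAAT, the box bound by NF-Y, for the octamer ATTTGCAT bound by OCT1, and for TATAAA, a form of the TATA box, and matches of different motifs were allowed to overlap. CCAAT was in 25 of 30 member promoters (83.3%) and in 35.7% of all 27305 promoters. The octamer was in 11 of 30 (36.7%) and in 1.80% of all promoters. TATAAA was in 17 of 30 (56.7%) and in 11.95% of all promoters. All 9 H2B promoters had CCAAT and 5 had the octamer. The 160 bases before the start are shown, 5′ to 3′ on the gene's strand with the motifs in capitals, for H2BC21, for H2BC5, which rose, for H2BC11, which fell, and for H2BC12, which did not pass.
H2BC21, chr1:149886683-149886842, minus strand: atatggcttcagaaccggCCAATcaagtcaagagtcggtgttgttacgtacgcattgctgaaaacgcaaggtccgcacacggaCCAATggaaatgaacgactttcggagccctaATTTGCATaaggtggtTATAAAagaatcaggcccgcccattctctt
H2BC5, chr6:26157961-26158120, plus strand: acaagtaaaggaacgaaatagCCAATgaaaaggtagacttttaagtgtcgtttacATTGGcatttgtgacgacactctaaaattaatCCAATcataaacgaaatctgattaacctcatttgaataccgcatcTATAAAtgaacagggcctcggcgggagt
H2BC11, chr6:27132796-27132955, minus strand: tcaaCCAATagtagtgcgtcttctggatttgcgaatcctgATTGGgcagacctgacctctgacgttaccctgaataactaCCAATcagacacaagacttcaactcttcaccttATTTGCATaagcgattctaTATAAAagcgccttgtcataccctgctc
H2BC12, chr6:27146859-27147018, minus strand: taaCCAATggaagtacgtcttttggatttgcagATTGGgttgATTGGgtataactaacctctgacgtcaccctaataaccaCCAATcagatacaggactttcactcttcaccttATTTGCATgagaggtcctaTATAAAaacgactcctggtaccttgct
H2BC21, H2BC11 and H2BC12 each held all 3 motifs and had fold changes of 2.02, −1.51 and −0.05 on the log2 scale, and the H2BC5 window held CCAAT and TATAAA without these octamer letters. A match is a description of these letters and not of a bound site.

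Genes that supply histone messages moved mostly down. Of 26 genes for transcription, 3′ end processing, export, translation and decay of replicative histone mRNA, 19 fell (73.1%) and 6 rose (23.1%). Of all genes tested, 30.1% fell and 32.1% rose. NELFE, at −0.14 ± 0.07, did not pass, and the median log2 fold change of the 26 was −0.30. CDK2, whose complex with cyclin E turns on histone transcription through NPAT, fell from 120 to 136 CPM (median 123) to 45.8 to 56.6 CPM (median 53.0), by 1.26 ± 0.05. ZNF473, a U7 snRNP partner in 3′ end cleavage, fell by 0.73 ± 0.05 and CSTF2, a subunit of the cleavage complex, by 0.61 ± 0.04. CCNE2, a cyclin E, fell by 1.11 ± 0.09, whereas CCNE1, the other cyclin E, rose from 11.7 to 15.6 CPM to 20.4 to 27.1 CPM, by 0.69 ± 0.09. The 3 other rises with the smallest p were NCBP2 (0.34 ± 0.05), a cap-binding subunit, LSM10 (0.32 ± 0.06), a U7 snRNP protein, and MIF4GD (0.25 ± 0.06), an SLBP partner in translation. The edgeR adjusted p of these 8 genes ran from 3.8e-12 to 0.0015. LSM11, another U7 snRNP protein, fell by 1.14 ± 0.12 (edgeR adjusted p = 3.2e-07). SLBP itself, the stem-loop binding protein, was at 74.0 to 84.3 CPM after siCHKA and 110 to 134 CPM after siNT and fell by 0.61 ± 0.05 (edgeR adjusted p = 3.1e-08).

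Most histone chaperones fell. Of 30 genes, 24 fell (80.0%), none rose and 6 did not pass (median −0.42), where 30.1% of all genes tested fell and 32.1% rose. At an unadjusted p below 0.05 edgeR had 2 higher, DESeq2 called 0, and a fit with only siCHKA libraries 1, 3 and 5 called 3 higher. HJURP, which loads the centromere histone CENP-A, fell from 99.2 to 106 CPM to 25.3 to 30.3 CPM (−1.93 ± 0.05). ASF1B and CHAF1A, which hand new H3 and H4 to replicated DNA, had log2 fold changes of −1.601 ± 0.05 and −1.54 ± 0.06, and DEK, a chaperone of H3.3, fell by 1.33 ± 0.06 (edgeR adjusted p of these 4 from 1.6e-14 to 2.7e-12). ANP32E, which removes H2A.Z, fell by 1.83 ± 0.10 (edgeR adjusted p = 8.9e-11). DAXX and ATRX, which place H3.3 at repeats, were at 0.02 ± 0.06 and 0.00 ± 0.11 and did not pass (edgeR adjusted p = 0.76 and 0.98). DNA replication genes are given beside the histones as what moved with them, and their part in the histone values was not tested. All 21 fell, where 30.1% of all genes tested fell, with a median of −1.47 and a range of −2.62 to −0.77. RRM2, a subunit of ribonucleotide reductase, had a median of 47.3 CPM after siCHKA and 295 CPM after siNT (−2.62 ± 0.07, edgeR adjusted p = 1.7e-14). CDC6, which loads the helicase, TYMS, which makes thymidylate, and MCM7, a helicase subunit, had log2 fold changes of −1.88 ± 0.05, −1.63 ± 0.05 and −1.53 ± 0.05.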

How the data were processed

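The authors sequenced libraries made with the TruSeq mRNA kit as single-end reads of 40 bases, aligned them to GRCh37 with TopHat2 2.0.4, and counted reads on Ensembl 64 genes with HTSeq 0.5.3p9. Raw, unnormalized counts were deposited by the authors as 4 files for each sample, whose differences were within sampling noise (chi-square per degree of freedom 0.970 to 1.03) and which were summed here. Of the aligned entries in the files, 26.1 to 30.6% had several alignments, 2.82 to 2.93% were ambiguous between genes and 3.95 to 5.97% lay on no gene. These rows stayed out of library sizes and tests. The labels name a miRNeasy kit and the methods an AllPrep kit for the RNA. Symbols came from GENCODE 44 by Ensembl identifier (82.8% named), and GRCh38 coordinates are printed from it.

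Counts were tested with edgeR 4.0.16 (filterByExpr, TMM, quasi-likelihood test, no covariates) in R 4.3.3, with Benjamini-Hochberg adjustment over 14501 genes and a threshold of 0.05. Log2 CPM used a prior count of 2. On simulated counts of 14379 genes for the siCHKA against siNT comparison, edgeR recovered 190 of 192 genes changed 2-fold, with 5 false calls. Every member reported is named. A further gene that fits the rule is not reported here and is in none of the member counts. Values by sample are given for H2BC21, the 10 replicative members with the highest mean CPM, each replication-independent member, CHKA, and of each other list at most the 4 genes with the smallest p in each direction. SLBP, LSM11, ANP32E, DAXX, ATRX, NELFE, H3C4, H4C16, H2BC13, H2BC15, H2BC18 and H1-4 were given values after theirs were seen. The members and gene lists were chosen with earlier results of these data known. The marker PECAM1 had no matching identifier. Alternatives were RLE normalization, DESeq2 1.42.0, no filter, a minimum of 10 reads throughout, a replicate block, an offset for GC content and length, each replicate left out, siCHKA libraries 1, 3 and 5 or 2, 4 and 6 left out, replicates 1 to 3 or 4 to 6 only, and 1 count file per sample. Python 3.11.15 was used for the remaining steps.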

Additional observations from a re-analysis of the deposited data

Results flagged for a closer look

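Among 52 groups of 6 samples (25 members and CHKA in each condition), 2 held a sample far from the other 5 by Dixon's criterion, where chance gives about 1 in 20. H2AC11 was at 6.29 CPM in siCHKA sample 1 and at 3.92 to 4.76 CPM in the other 5. H2BC4 was at 2.50 CPM in siCHKA sample 5 and at 3.50 to 3.92 CPM in the other 5.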

How the results depend on the processing

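Against 11 lower and 8 higher, a 1.5-fold minimum left 5 lower, replicates 1 to 3 alone gave 5 higher, and 1 count file per sample gave 7 lower and 3 higher of 17 tested. Over all genes, 3720 of 14737 were higher with replicates 1 to 3 alone. With 1 count file per sample, 3467 of 11994 were lower and 3413 higher. The median of the 25 members, 0.02 with H2BC21 included, was −0.13 with no filter and −0.12 with replicates 1 to 3 only. Chaperones called higher were 0 in the main fit and 3 with at least 10 reads in every sample. They were 1 with the GC and length offset, 3 without siCHKA libraries 2, 4 and 6, and 1 with replicates 1 to 3 only. With 1 count file per sample 1 was higher, and with 1 replicate left out 0 to 2 were. Fits with the replicate block are given below. H2AC6, at 0.02, changed sign to −0.0052 with no filter, −0.033 without siCHKA libraries 2, 4 and 6 and −0.20 with replicates 1 to 3 only, and ran from −0.077 to 0.086 with 1 replicate left out. H2BC12, at −0.05, changed sign to 0.061 without siCHKA libraries 2, 4 and 6 and 0.0070 with replicates 4 to 6 only, and ran from −0.11 to 0.0046 with 1 replicate left out. The causes were not tested.

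Replicate numbers did not pair the samples: correlations of same-numbered deviations ran from −0.40 to 0.32 and 2 of 6 were over 0.1. With the replicate block 9 members were lower and 8 higher, where 4273 of all 14501 genes were lower and 4494 higher. The block gave 2 chaperones higher, and the block with the GC and length offset gave 1. 1 of 6 siCHKA samples correlated best with its own number.

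Of the 19 members called, 13 kept the call and its direction in every alternative that gave a value. The other 6 lost it in some and kept the direction: H2AC11 in 15 of 24 alternatives, MACROH2A2 in 11, H2BC13 and H2BC18 in 3 each, H2BC15 in 2 and MACROH2A1 in 1. Depth limits the scarce genes, 7 of 32 members having too few reads to be tested.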
